A study of Mus musculus with 57 samples.

Results

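The genes described here are 10 genes of the mTORC1 kinase complex and its controls, 4 that encode stress-induced inhibitors (Sesn2, Ddit4, Eif4ebp1 and Deptor) and 6 that encode core components (Mtor, Rptor, Tsc1, Tsc2, Rheb and Rps6kb1). They were taken by gene symbol from the 52853 genes counted in adipose tissue of mice that carry the R707W change in Mfn2, and all 10 passed the filter on low counts in each of the 3 tables. The animals were male C57BL/6J mice, either homozygous Mfn2 R707W knock-in (KI) or wild-type (WT) littermates, in a line bred from 1 CRISPR-edited founder that also carries a silent EcoRV site beside the edit. From 5 weeks of age they ate chow or a high-fat diet (HFD) with 45% of its energy as fat for 6 months. RNA was sequenced from whole inguinal white adipose tissue (WAT) on chow (7 WT, 6 KI), whole inguinal WAT on HFD (8 WT, 8 KI, each mouse listed with 2 technical replicates and given 1 deposited column) and brown adipose tissue (BAT) on HFD (6 WT, 6 KI).

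mTORC1 is a lysosome-bound kinase complex, built around mTOR and its scaffold Raptor (Rptor), that drives protein and lipid synthesis when amino acids and growth factors are plentiful. The GTPase Rheb switches it on, the Tsc1 and Tsc2 proteins keep Rheb off, and S6 kinase (Rps6kb1) carries its signal to the ribosome. Cells under stress raise proteins that restrain mTORC1 or the synthesis it drives. Sestrin2 senses leucine, REDD1 (Ddit4) acts through Tsc2, and Deptor binds the kinase itself. 4E-BP1 (Eif4ebp1) does not restrain the kinase but lies downstream, and holds back cap-dependent translation until mTORC1 phosphorylates it. Much of this control lies in protein modification and location, which counts of mRNA do not measure.

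Libraries held 8042591 to 11720458 counts in BAT and in inguinal WAT on chow and 17572752 to 25680411 in inguinal WAT on HFD. Mitochondrially encoded genes took 5.40 to 14.8% of counts in HFD inguinal WT mice and 2.15 to 3.68% in their KI mice, with ranges that did not overlap, and 14.6 to 18.4% against 10.6 to 12.8% in BAT. BAT held 34890 to 52588 counts of Ucp1, the uncoupling protein that defines brown adipocytes, and every inguinal library held 45 or fewer. Of 8 lists of 5 cell type markers each, 3 differences were called in HFD inguinal WAT (Adipoq at a log2 fold change of -0.85, Lipe at 0.54 and Cidea at 1.55), 1 in chow inguinal WAT (Cidea, 3.03) and none in BAT (edgeR, adjusted p below 0.01). Skeletal muscle markers summed to 56691 counts-per-million (CPM) in chow KI mouse 4 and to 15.1 to 662 in the other 12 chow mice. They were also high in BAT WT mice 1 and 2 (2355 and 2635 CPM, group median 18.3) and HFD inguinal KI mice 3 and 5 (3341 and 1880 CPM, median 105). Lymphocyte markers summed to 483 CPM in HFD inguinal KI mouse 2, 344 in HFD inguinal WT mouse 2 and 313 in chow KI mouse 3. The medians of those 3 groups were 6.16, 9.36 and 4.84 CPM. Mfn2 mRNA was present in every group, and its KI to WT log2 fold changes of 0.34 (adjusted p = 0.0114) on HFD, 0.37 (0.0789) on chow and 0.29 (0.113) in BAT were not called. The base change itself cannot be read from gene counts. These are bulk samples, in which fewer cells of a type and less RNA per cell cannot be told apart.

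On GRCm38, Sesn2 (ENSMUSG00000028893) is at chr4:132492032-132510501 on the minus strand, and Eif4ebp1 (ENSMUSG00000031490) at chr8:27260329-27276674 on the plus strand. Mtor (chr4:148448611-148557683) starts 543907 bases from the end of Mfn2 (chr4:147873599-147904704), the edited gene. RefSeq promoters, 250 bases before to 50 after a start, were matched for 8 members, all but Eif4ebp1 and Deptor. The core letters of the element bound by ATF4 with C/EBP proteins, TGATGNAA, were in none of the 8 on either strand and in 3.97% of 32851 windows of the same length. The E-box CACGTG, which TFEB and TFE3 bind, was in 7.15% of windows and in 1 member, Rheb, 96 bases before its start. The stretch before the Sesn2 transcript is shown because Sesn2 is the inhibitor whose genotype difference itself differed between depots, as described further on. It is from RefSeq (GRCm38.p6), chr4:132510502-132510706, minus strand, 205 bases with 61% G and C that end at the transcript start, and it is in lower case throughout since it held neither motif.
Sesn2 upstream: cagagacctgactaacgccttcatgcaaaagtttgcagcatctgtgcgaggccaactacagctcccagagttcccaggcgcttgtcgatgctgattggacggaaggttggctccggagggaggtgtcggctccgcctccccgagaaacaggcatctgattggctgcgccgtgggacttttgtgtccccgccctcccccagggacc

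Within each group, transcripts-per-million values (TPM, counts per transcript length) gave the order of the members. Eif4ebp1 was highest and Ddit4 next in all 6 groups, and Rptor was ninth and Tsc1 lowest in all 6. In chow WT mice the mean TPM was 315 ± 58.7 (SD, n = 7) for Eif4ebp1, 175 ± 96.8 for Ddit4, 42.2 ± 4.07 for Rheb and 5.48 ± 0.95 for Tsc1. The TPM of Eif4ebp1 and Ddit4 in HFD WT mice, 152 ± 11.4 and 137 ± 44.9 (n = 8), lay within the spread of Ddit4. The inhibitors also varied more among mice of 1 group than the core did. Their coefficient of variation in CPM, over 4 genes and 6 groups, had a median of 22.7% (7.88 to 54.3%), against 10.6% (5.17 to 25.7%) for the 6 core genes and 16.3% for the 13034 genes tested in all 3 tables. All further levels are CPM, scaled by TMM factors taken over all 41 mice together.

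Between KI and WT mice, 1 member was called, Eif4ebp1 on HFD. A gene was called when its adjusted p in edgeR's quasi-likelihood test, Benjamini-Hochberg over all genes, was below 0.01. In HFD inguinal WAT 1 of 10 members was called, beside 11.5% of all 16471 genes tested (6.21% higher and 5.24% lower in KI), and 1 had KI and WT mice that did not overlap, beside 4.53%. On chow 0 of 10 were called, beside 3.27% (2.06% higher, 1.22% lower), and 1 did not overlap, beside 4.22%. In BAT 0 of 10 were called, beside 1.83% (1.36% higher, 0.475% lower), and 0 did not overlap, beside 3.69%. At an unadjusted p below 0.05 the members numbered 3, 5 and 3 of 10, beside 32.9, 24.5 and 24.4% of all genes. DESeq2 called 1, 2 and 1 of them, beside 16.5, 7.66 and 5.39%. Each p-value rests on the spread between mice of 1 group. Exact 2-sided permutation tests of mean log2 CPM were also run for each member in each table, 30 such tests in all. Of these, 9 gave a p below 0.05 without adjustment and 4 after Benjamini-Hochberg over the 30. The 4 adjusted values were 0.00466 for Eif4ebp1 on HFD, 0.0175 for Rps6kb1 and 0.0466 for Deptor on chow, and 0.0487 for Sesn2 in BAT. Permutation p-values below are unadjusted unless stated. The smallest unadjusted p such a test can give is 0.000155 on HFD, 0.00117 on chow and 0.00216 in BAT.

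**Figure D1:**
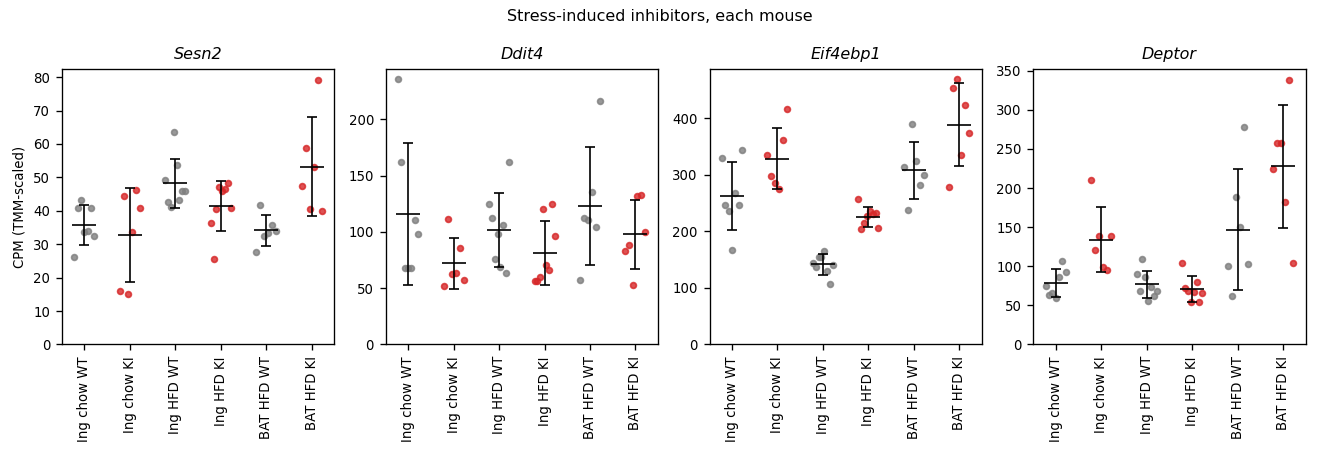
Level in CPM (vertical axes) of Sesn2, Ddit4, Eif4ebp1 and Deptor in each of 41 mice, by group; grey points are WT mice, red points KI mice, and black marks the mean ± SD. In HFD inguinal WAT the 8 KI mice lie between 204 and 258 CPM of Eif4ebp1, all above the 8 WT mice.

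Eif4ebp1, which encodes the translational repressor 4E-BP1, was higher in KI mice on HFD. In HFD inguinal WAT it had a lowest, median and highest level of 108, 142 and 166 CPM in WT mice and 204, 229 and 258 CPM in KI mice. Every KI mouse was above every WT mouse. WT mice averaged 141 ± 17.8 CPM and KI mice 226 ± 17.8 CPM (SD, n = 8 per genotype), a 1.60-fold difference and a log2 fold change of 0.68 ± 0.08 (SE; adjusted p = 6.89e-06; exact permutation p = 0.000155, the smallest possible). With mitochondrially encoded genes left out it was 0.68 (adjusted p = 7.19e-06). Brown adipocyte markers summed to 21.9 to 48.2 CPM in these KI mice and 13.8 to 25.5 CPM in WT. Among them Cidea was at 10.7 to 36.7 CPM in KI and 3.10 to 10.4 CPM in WT mice. Ucp1 reached at most 1.51 CPM in KI and 1.77 CPM in WT mice. Of the 3 such markers tested, 2 had higher KI means and 1 a lower one. The part of these markers in the difference was not tested. On chow the levels were 168, 247 and 343 CPM in WT and 275, 316 and 417 CPM in KI mice, and all 6 KI mice were above the WT median. In BAT they were 237, 307 and 389 CPM in WT and 278, 398 and 469 CPM in KI mice, with 5 of 6 KI mice above the WT median. These log2 fold changes, 0.32 ± 0.15 (SE; adjusted p = 0.201) and 0.29 ± 0.14 (0.198), were not called. The KI difference itself did not differ by a called amount between HFD and chow (0.38 ± 0.17, adjusted p = 0.230) or between BAT and inguinal WAT (-0.35 ± 0.16, 0.187). Ordered by mean, the groups ran from BAT KI through chow KI, BAT WT, chow WT and HFD KI to HFD WT, and of these neighbours the last pair alone did not overlap.

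For Sesn2, the leucine sensor, the genotype difference was not the same in BAT and inguinal WAT on HFD. In BAT its lowest, median and highest levels were 27.6, 33.7 and 41.6 CPM in WT mice and 39.9, 50.3 and 79.3 CPM in KI mice. In BAT 5 of the 6 WT mice were below every KI mouse, and 4 of the 6 KI mice were above every WT mouse. In HFD inguinal WAT they were 41.2, 45.9 and 63.6 CPM in WT and 25.6, 43.4 and 48.4 CPM in KI mice, which overlapped, with 4 of 8 KI mice below every WT mouse. The log2 fold change was 0.59 ± 0.16 (SE; adjusted p = 0.0310; exact permutation p = 0.00649) in BAT and -0.21 ± 0.11 (adjusted p = 0.207) in HFD inguinal WAT, neither of them called. The difference between these effects, 0.84 ± 0.20, was called (adjusted p = 0.00807), the 1 member of 10 beside 2.82% of all genes. That call is near the threshold: over 28 fits that each left out 1 mouse it ran from 0.69 to 0.91, with adjusted p from 0.00418 to 0.0179, and 14 of the 28 fits called it. The test treats the BAT and inguinal libraries as independent, although the sources do not say if any mouse gave both tissues. On chow Sesn2 spanned 26.2 to 43.1 CPM in WT and 15.1 to 46.2 CPM in KI mice, a log2 fold change of -0.13 ± 0.25 (adjusted p = 0.797).

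Ddit4, which encodes REDD1, was not called in any comparison, and in chow WT mice it had the highest coefficient of variation of any member, 54.3%. Its lowest, median and highest levels on HFD in inguinal WAT were 63.2, 102 and 162 CPM in WT and 56.0, 68.4 and 124 CPM in KI mice. On chow they were 67.7, 98.4 and 236 CPM in WT and 52.2, 63.1 and 112 CPM in KI mice. In BAT they were 57.6, 112 and 216 CPM in WT and 53.1, 93.9 and 133 CPM in KI mice. The ranges overlapped in all 3 tables, and the KI median was the lower one each time. The log2 fold changes were -0.31 ± 0.22 (SE; adjusted p = 0.355) on HFD, -0.68 ± 0.31 (0.193) on chow and -0.36 ± 0.28 (0.450) in BAT.

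Deptor, which encodes the inhibitor bound within the complex, had its largest fitted genotype difference on chow. In chow inguinal WAT the lowest, median and highest levels were 59.6, 74.1 and 107 CPM in WT and 95.3, 130 and 210 CPM in KI mice. All 6 KI mice were above the WT median, and 4 of 6 KI mice exceeded every WT mouse. The log2 fold change of 0.77 ± 0.18 (SE) had an adjusted p of 0.0170 and an exact permutation p of 0.00466, so it was not called by edgeR, while DESeq2 gave an adjusted p of 0.00124. Brown adipocyte markers summed to 75.1 to 469 CPM in these KI mice and to 9.41 to 57.7 CPM in WT. Most of that sum was Cidea, at 63.9 to 463 CPM in KI and 5.57 to 46.6 CPM in WT mice. Ucp1 held at most 9 counts in KI and 6 in WT mice. Of the 3 brown adipocyte markers tested on chow, 2 had higher KI means and 1 a lower one. Mouse 1 of the KI group was highest in both that sum and Deptor. Without that mouse Deptor differed by 0.60 (adjusted p = 0.0333), and without KI mouse 4, whose muscle markers were high, by 0.84 (0.0137). Whether these marker levels bear on the difference was not tested. On HFD Deptor spanned 56.0 to 109 CPM in WT and 54.0 to 105 CPM in KI mice, a log2 fold change of -0.11 ± 0.14 (adjusted p = 0.656). In BAT the levels were 61.4, 127 and 278 CPM in WT and 104, 241 and 338 CPM in KI mice (0.60 ± 0.33, adjusted p = 0.288), with 5 of 6 KI mice above the WT median. The KI difference on HFD minus that on chow was -0.86 ± 0.24 (adjusted p = 0.0441) and was not called. In that comparison edgeR called 0 of 10 members, beside 0.845% of all genes, with 2 members at an unadjusted p below 0.05 (17.1% of all genes) and 0 called by DESeq2 (2.38%).

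**Figure D2:**
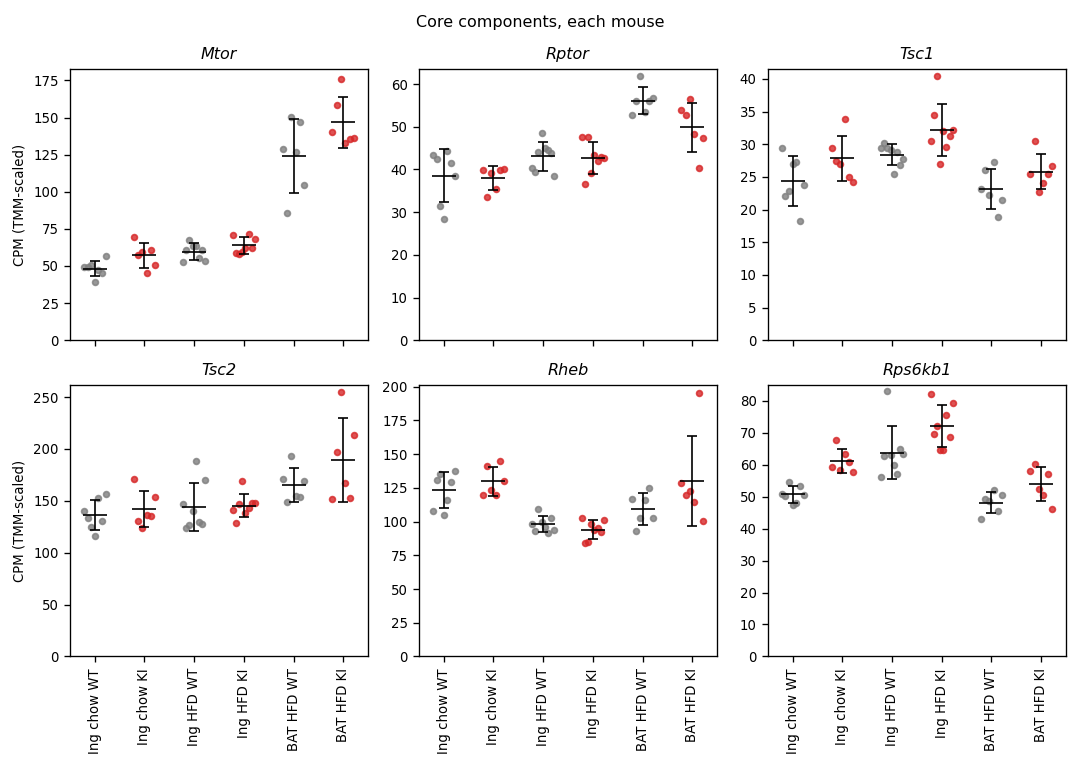
Level in CPM (vertical axes) of the 6 core components in each of 41 mice, by group; grey points are WT mice, red points KI mice, and black marks the mean ± SD. Genotypes overlap in every panel and tissue except Rps6kb1 on chow, where KI mice start at 57.9 CPM and WT mice end at 54.7.

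None of the 6 core components was called between genotypes on HFD, on chow or in BAT, beside 11.5, 3.27 and 1.83% of all genes. The log2 fold changes of the 6, with an interval of 1.96 SE on each side, lay between -0.16 and 0.34 on HFD. They lay between -0.22 and 0.44 on chow and between -0.40 and 0.48 in BAT. Rps6kb1, the S6 kinase, came nearest. On chow it was 47.4, 50.5 and 54.7 CPM at its lowest, median and highest in WT mice and 57.9, 60.1 and 67.8 CPM in KI mice. The 6 KI mice were all above the 7 WT mice. Its log2 fold change of 0.27 ± 0.06 (SE) had an adjusted p of 0.0143 and an exact permutation p of 0.00117, the smallest possible. DESeq2 called it (adjusted p = 0.000583). Without KI mouse 4, the one with high muscle markers, it was 0.26 (edgeR adjusted p = 0.0302). On HFD all 8 KI mice were above the WT median, at 64.5 to 82.1 CPM against 56.2 to 83.0 CPM (0.18 ± 0.08, adjusted p = 0.104). The 155 bases that Rps6kb1 shares with Rnft1, and the 693 that Tsc2 shares with Pkd1, lie on opposite strands, and with the strand setting of the counting not given, reads there cannot be assigned between the partners.

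Mtor, the kinase, had lowest, median and highest levels of 52.4, 60.7 and 67.8 CPM in WT and 58.1, 62.1 and 71.5 CPM in KI mice on HFD, and of 39.5, 49.3 and 56.5 against 45.6, 58.5 and 69.7 CPM on chow. In BAT it was 85.5, 128 and 150 CPM in WT and 133, 138 and 176 CPM in KI mice, all 6 of which were above the WT median. Genotypes overlapped in each table, and the log2 fold changes were 0.10, 0.25 and 0.21 (adjusted p = 0.296, 0.133 and 0.328). Rptor, the scaffold, had the values nearest to 0 on HFD and chow, -0.0039 ± 0.06 and -0.02 ± 0.10 (SE). Its levels of 52.7 to 61.9 CPM in BAT WT and 40.3 to 56.4 CPM in BAT KI mice gave -0.21 ± 0.10 (adjusted p = 0.199).

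Tsc1 and Tsc2 form the brake on Rheb. Tsc1 on HFD spanned 25.4 to 30.2 CPM in WT and 27.0 to 40.4 CPM in KI mice. Of the 8 KI mice, 6 were above every WT mouse (0.19 ± 0.07, adjusted p = 0.0797). The exact permutation p for Tsc1 was 0.0126, or 0.0755 adjusted over the 30 tests. Tsc2 spanned 124 to 188 CPM in WT and 129 to 169 CPM in KI mice (0.02 ± 0.09, adjusted p = 0.911). Rheb, the activating GTPase, spanned 91.3 to 109 CPM and 84.4 to 103 CPM in the same mice (-0.05 ± 0.06, adjusted p = 0.575). On chow and in BAT these 3 genes had log2 fold changes of 0.05 to 0.21, none of them called. In BAT the Rheb value of 0.21 fell to 0.08 without KI mouse 5, which stood at 196 CPM.

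**Figure D3:**
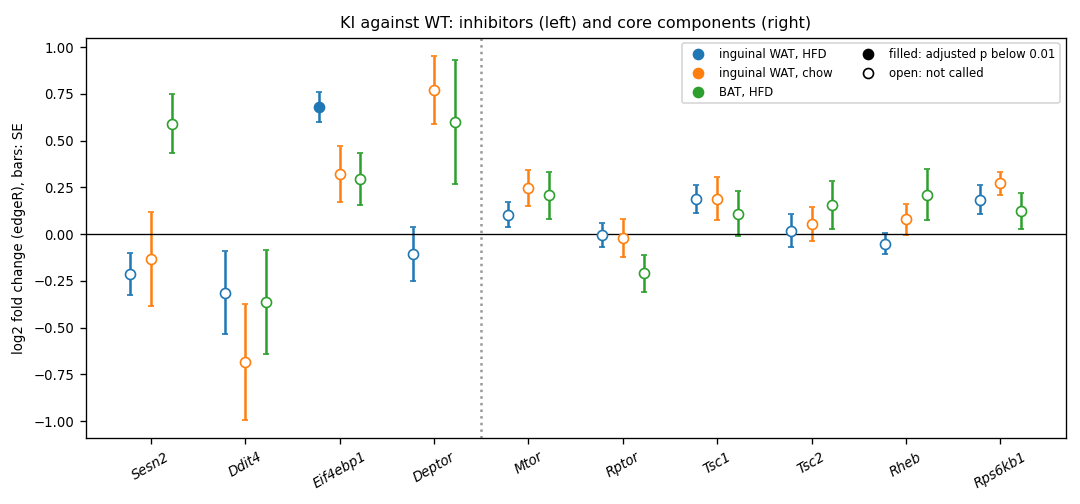
KI to WT log2 fold change from edgeR (vertical axis, bars ± SE) for the 10 members in the 3 tables. Filled points were called at an adjusted p below 0.01. Eif4ebp1 in HFD inguinal WAT, at 0.68, is the filled point.

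Inhibitors and core components were then set against each other. The core list holds the brake genes Tsc1 and Tsc2 beside activating genes, and the inhibitor list holds the downstream repressor gene Eif4ebp1. The contrast is thus between 2 lists and does not measure mTORC1 activity. The median log2 fold change of the 4 inhibitors and the 6 core genes was -0.16 and 0.06 on HFD, 0.10 and 0.13 on chow, and 0.44 and 0.14 in BAT, while that of all genes lay between -0.01 and 0.01 in each table. Of the inhibitors 1 of 4 had a higher mean in KI mice on HFD, 2 of 4 on chow and 3 of 4 in BAT, and of the core 4, 5 and 5 of 6. The mean log2 CPM of the inhibitors minus that of the core, set to 0 at the chow WT mean, gives 1 value per mouse. Its lowest, median and highest values were -0.23, 0.02 and 0.22 in chow WT and -0.33, -0.05 and 0.19 in chow KI mice. On HFD they were -0.59, -0.25 and -0.04 in WT and -0.53, -0.34 and -0.15 in KI mice. In BAT they were -0.44, 0.05 and 0.19 in WT and -0.09, 0.12 and 0.65 in KI mice. The genotypes overlapped in each table.

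**Figure D4:**
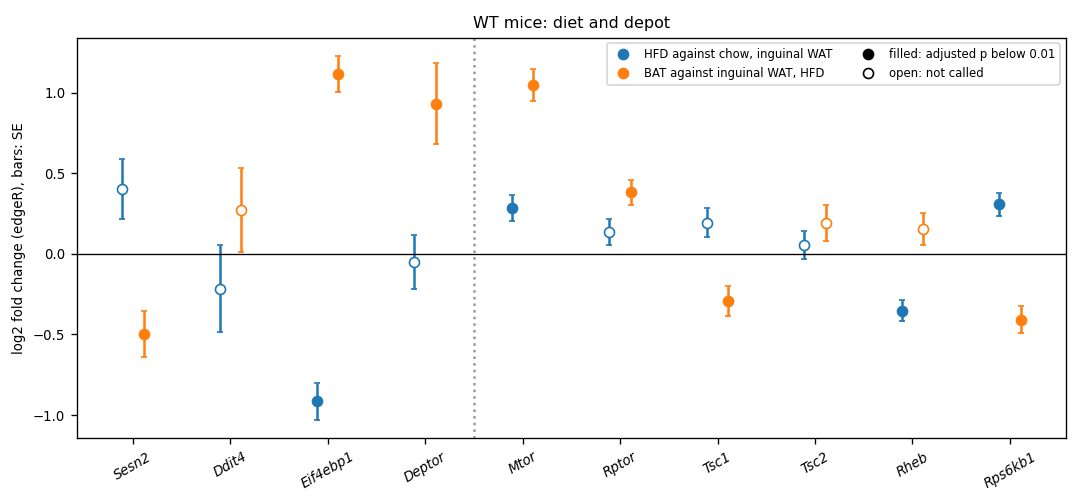
Log2 fold change from edgeR (vertical axis, bars ± SE) of the 10 members between WT groups, HFD against chow in inguinal WAT and BAT against inguinal WAT on HFD. Filled points were called at an adjusted p below 0.01. Eif4ebp1 is -0.91 in the diet comparison and 1.12 in the depot comparison.

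More members were called between diets and between depots than between genotypes, and the same order held for all genes. Of all genes, 28.3% were called between diets and 55.9% between depots, against 11.5, 3.27 and 1.83% between genotypes. Each tissue and diet was deposited as its own table, so diet or depot and table cannot be told apart. Among WT mice 4 of 10 members were called between HFD and chow in inguinal WAT, beside 28.3% of all genes. Eif4ebp1 was lower on HFD (-0.91 ± 0.11 SE, adjusted p = 2.79e-07), and its HFD KI mean of 226 CPM lay between the WT means of 141 on HFD and 263 on chow. Rheb was also lower on HFD (-0.35 ± 0.07, adjusted p = 7.66e-05). Rps6kb1 (0.31 ± 0.07, adjusted p = 0.000888) and Mtor (0.29 ± 0.08, 0.0050) were higher on HFD, and without HFD WT mouse 4 Mtor was not called (0.27, adjusted p = 0.0106).

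Between BAT and inguinal WAT of WT mice on HFD, 7 of 10 members were called, beside 55.9% of all genes, whose median log2 fold change was -0.09. Eif4ebp1 (1.12 ± 0.11 SE, adjusted p = 3.65e-10) and Mtor (1.05 ± 0.10, 1.19e-10) were higher in BAT, where the lowest Mtor value, 85.5 CPM, exceeded the 71.5 CPM of the highest inguinal HFD mouse. Deptor (0.93 ± 0.25, adjusted p = 0.00204) and Rptor (0.38 ± 0.08, 5.33e-05) were higher in BAT too. Sesn2 (-0.49 ± 0.14, adjusted p = 0.00324), Rps6kb1 (-0.41 ± 0.08, 9.74e-05) and Tsc1 (-0.29 ± 0.09, 0.00564) were lower. Calls were lost without BAT WT mouse 1 for Sesn2 (-0.44, adjusted p = 0.0118), without BAT WT mouse 5 for Deptor (0.65, 0.0170), and without BAT WT mouse 1, 3, 5 or 6 or HFD inguinal WT mouse 2 for Tsc1 (-0.29 to -0.24, adjusted p up to 0.0232).

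**Figure D5:**
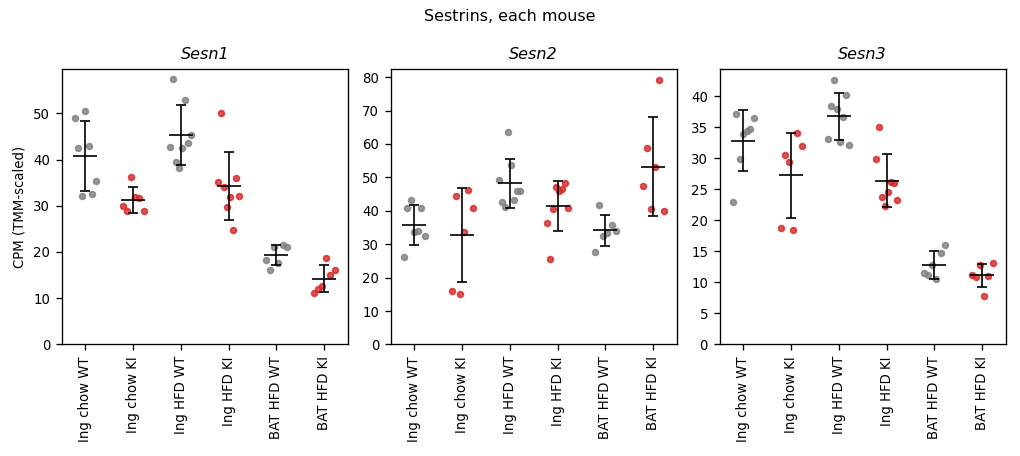
Level in CPM (vertical axes) of the sestrins Sesn1, Sesn2 and Sesn3 in each of 41 mice, by group; grey points are WT mice, red points KI mice, and black marks the mean ± SD. In BAT the KI mean of Sesn2 is 53.2 CPM against 34.2 in WT, while that of Sesn1 is 14.3 against 19.3.

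The paralogs of the members were followed beside them, without a test of the difference between paralogs. Sesn3 on HFD spanned 32.2 to 42.7 CPM in WT and 22.3 to 35.2 CPM in KI mice, a called decrease (-0.47 ± 0.10 SE, adjusted p = 0.00174). Sesn1, a p53-regulated sestrin, had lower KI means in each table, with log2 fold changes of -0.39 (adjusted p = 0.0272), -0.38 (0.0619) on chow and -0.47 (0.0556) in BAT, none called. In BAT Sesn1 was 16.2 to 21.5 CPM in WT and 11.1 to 18.7 CPM in KI mice. Eif4ebp2, which encodes 4E-BP2, spanned 119 to 136 CPM in WT and 132 to 158 CPM in KI mice on HFD (0.18 ± 0.06, adjusted p = 0.0240), and was at -0.04 on chow and -0.19 in BAT. Rhebl1 and Rps6kb2 were not called between genotypes. Eif4ebp3 stayed at or below 1.12 CPM in all mice, and Ddit4l had medians of 2.07 CPM or less, with 1 chow KI mouse, the muscle marker-rich mouse 4, at 143 CPM.

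Around the members, 77 other genes of the pathway were examined, of which 76, 73 and 75 were tested on HFD, on chow and in BAT. On HFD 12 were called in KI mice, 10 higher and 2 lower, or 15.8% beside 11.5% of all genes. On chow 3 were higher (4.11% beside 3.27%), and in BAT 1 (1.33% beside 1.83%). The median log2 fold changes of those tested were 0.03, 0.05 and 0.04.

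The 77 genes form 10 short lists, none of which was tested as a set. Among the upstream kinases, 4 of 13 were called higher on HFD and none lower, beside 6.21% and 5.24% of all genes. Prkaa2, a catalytic subunit of the energy sensor AMPK, spanned 3.54 to 6.71 CPM in WT and 6.66 to 12.3 CPM in KI mice (0.72 ± 0.13 SE, adjusted p = 0.000804). On chow and in BAT Prkaa2 was at 1.22 and 0.69 without a call (adjusted p = 0.0212 and 0.0296). On chow it spread widely in KI mice, from 7.70 to 33.8 CPM against 4.82 to 8.59 CPM in WT. The chow KI group includes the muscle marker-rich mouse 4, whose part in the Prkaa2 value is not given here. The KI effect on Prkaa2 did not differ by a called amount between diets or depots (adjusted p = 0.474 and 0.987). The other kinases called on HFD were Prkaa1, the other catalytic subunit, Stk11, which encodes the AMPK-activating kinase LKB1, and Akt2. A list of 8 genes held sestrins other than Sesn2, amino acid sensors and Ddit4l, the paralog of Ddit4. On HFD Ddit4l alone had a higher KI estimate (0.10, adjusted p = 0.937). The other 7 had lower KI means, and 2 of them were called lower, beside 5.24% of all genes. They were Sesn3 and the arginine sensor Castor2 (-0.37 ± 0.09, adjusted p = 0.00522). Castor2 spanned 19.2 to 25.9 CPM in WT and 14 to 20.5 CPM in KI mice. Castor2 kept its call in 8 of 16 fits that each left out 1 mouse (-0.41 to -0.33, adjusted p up to 0.0132), failing without KI mouse 1, 6, 7 or 8 or WT mouse 1, 4, 7 or 8. Of 11 translation targets 10 had higher KI means, and 2 were called higher, beside 6.21% of all genes. These were the elongation factor kinase Eef2k (0.53 ± 0.12, adjusted p = 0.00311) and Eif4b. The median log2 fold change of all genes on HFD was 0.0055. In 1 fit of all 6 groups Eef2k (adjusted p = 0.0207), Castor2 (0.0758) and Prkaa2 (0.0114) were not called.

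The growth factor receptor adaptor Grb10, an mTORC1 substrate, spanned 43.8 to 64.5 CPM in WT and 62.0 to 87.0 CPM in KI mice on HFD (0.44 ± 0.08 SE, adjusted p = 0.000648). Rragc, a Rag GTPase that brings mTORC1 to the lysosome, was higher by 0.40 ± 0.08 (adjusted p = 0.00108), and Prr5l, which encodes an mTORC2-associated protein, by 0.48 ± 0.11 (0.00485). Prr5l lost its call without KI mouse 1 or 6 or WT mouse 1, 4, 5 or 6 (0.38 to 0.52 over all such fits, adjusted p up to 0.0152) and in 1 fit of all 6 groups (0.0357). The KICSTOR gene Itfg2 was the remaining gene called. Of the 5 further subunit and assembly genes and the 3 folliculin complex genes, none was called on HFD, beside 11.5% of all genes. In these mice all 5 macrophage markers (median log2 fold change -0.35), 4 of 5 fibroblast markers (-0.22) and 4 of 5 endothelial markers (-0.12) had lower KI means without a call, and all 5 muscle markers had higher ones (0.71). Their part in these differences, beside that of the adipocyte and brown adipocyte markers called, was not tested.

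On chow 2 of 3 genes of the folliculin complex, which acts on the Rag GTPases, were called higher, beside 2.06% of all genes. Flcn was 35.1 to 53.5 CPM in WT and 52.6 to 94.1 CPM in KI mice (0.73 ± 0.15 SE, adjusted p = 0.00754), and Fnip1 was 20.5 to 25.5 and 27.4 to 35.8 CPM (0.48 ± 0.09, 0.00426). Fnip1 did not overlap between genotypes. On HFD Flcn was at 0.52 without a call (adjusted p = 0.0120) and Fnip1 at -0.02 (0.911). Their KI effects did not differ by a called amount between diets (-0.19 and -0.48, HFD minus chow, adjusted p = 0.708 and 0.0141). Atg101, part of the autophagy-initiating ULK complex, was the other called gene, at 38.0 to 53.3 CPM in WT and 58.8 to 85.8 CPM in KI mice (0.54 ± 0.11, adjusted p = 0.00754). With 1 mouse left out, Flcn and Atg101 were each called in 4 of 13 fits (adjusted p up to 0.0200 and 0.0208) and Fnip1 in 8 of 13, failing without KI mouse 1 or 2 or WT mouse 1, 6 or 7. The values stayed between 0.44 and 0.81. In the same mice the brown adipocyte marker sums, mostly Cidea, did not overlap between genotypes (75.1 to 469 CPM in KI, 9.41 to 57.7 CPM in WT). Their part in these differences was not tested. In WT mice on HFD, Flcn, Fnip1 and Atg101 were higher in BAT than in inguinal WAT by 2.16, 1.09 and 1.21 on the log2 scale. In BAT Rragd, another Rag GTPase, was the 1 gene called, at 2.89 to 8.70 CPM in WT and 11.2 to 23.4 CPM in KI mice (1.47 ± 0.29, adjusted p = 0.00731). All 6 KI mice exceeded all WT mice, and with 1 mouse left out it was called in 3 of 12 fits (1.31 to 1.72, adjusted p up to 0.0204). In 1 fit of all 6 groups it was 1.53 and not called (adjusted p = 0.175).

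The genes most like each inhibitor were ranked by Pearson's r of log2 CPM over 41 mice among 13034 genes. The mice share tissue, diet, table and genotype, so r is also given after each group's mean was subtracted, and both are descriptions. Slc3a2, a chain of amino acid transporters, was nearest to Sesn2 (r = 0.74, within groups 0.60), followed by Nufip2 (0.74, 0.71), Cdc27, Sash1 and Trp53inp2. Nfkbia, the NF-kappaB inhibitor, was nearest to Ddit4 (0.73, within groups 0.81), followed by Sema6b, Rhob, Dclre1b and Depp1. For Eif4ebp1 they included Gm15417 (0.94, within groups 0.71), A430018G15Rik, Chchd6 and Pold2. For Deptor they were Gng12 (0.88, within groups 0.75), Pdhb, Eif5, Gbe1 and Eno1. Among the inhibitors themselves the pair with the highest r was Eif4ebp1 and Deptor, at 0.66 over all mice and 0.36 within groups, and Sesn2 and Ddit4 had 0.25 and 0.28.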

How the data were processed

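RNA from adipose tissue was sequenced, and the authors deposited 3 tables of raw counts per gene, 1 column per mouse, with a gene length column of unit other than counts in the deposited files. Per the labels the tools were cutadapt, STAR, SAMtools and featureCounts with GRCm38. Their versions, the annotation and the strand setting are not given in the sources used here. For inguinal WAT on HFD the labels list 2 technical replicates per mouse and the table has 1 column per mouse; that a column sums both was assumed from its higher total.

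From 54838 entries, 1884 without values were left out and 200 entries of 99 repeated symbols, with identical counts, were reduced to 1 each, which left 52853 genes. No deposited column went unused. Fits used edgeR 4.0.16 in R 4.3.3 (filterByExpr, TMM, robust quasi-likelihood, genotype as the only term), and differences between diets or depots used 4 groups of 2 tables. A standard error was taken as the size of the log2 fold change divided by the root of its F statistic. DESeq2 1.42.0 was an alternative. TPM was computed from counts and deposited lengths, and log2 CPM used a pseudocount of 0.5. Fits were tested on simulated data. No duplicated library was found.

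Members and lists were chosen with earlier results of these data known. Named genes are all members, their paralogs, Mfn2, the 5 largest called rises and falls of other pathway genes per table, and the 5 genes most like each inhibitor, of which 1 is not reported here; Eif4b, Stk11, Prkaa1, Akt2 and Itfg2 were named after their values were seen. Alternatives were other size factors and filters, no mitochondrially encoded genes, 1 fit of all 6 groups, a replicate block, other thresholds and leaving out each mouse. Depth limits low genes, and intervals cover the spread between mice only.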

Additional observations from a re-analysis of the deposited data

Results flagged for a closer look

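In 60 sets of values, 10 members in 6 groups, 2 held a mouse far from the rest of its group by Dixon's test, and chance flags about 1 in 20. Rheb in BAT KI mouse 5 stood at 196 CPM, and without it the log2 fold change in BAT was 0.08 (adjusted p = 0.669). Rps6kb1 in HFD inguinal WT mouse 3 stood at 83.0 CPM, and without it the log2 fold change on HFD was 0.24 (adjusted p = 0.0120).

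The KI effect differed between depots on HFD, by the test of the difference, for Sesn2 (0.84, BAT minus inguinal WAT; adjusted p = 0.00807), Eef2k (-0.75, 0.00773) and Grb10 (-0.68, 0.00401), of which Eef2k and Grb10 were called higher in inguinal WAT and neither was called in BAT. It differed between diets in inguinal WAT for Atg101 (-0.71, HFD minus chow, adjusted p = 0.00901). Of the 77 other pathway genes, 2 were called in the depot difference, or 2.6% beside 2.82% of all genes. In the diet difference 1 was called, or 1.3% beside 0.845%. In 1 fit of all 6 groups the Eef2k and Sesn2 differences were not called (adjusted p = 0.0803 and 0.0416). With 1 mouse left out, Sesn2 was called in 14 of 28 fits, Eef2k in 12 of 28 (adjusted p up to 0.0159), Grb10 in 27 of 28 (0.0103 without BAT WT mouse 4) and Atg101 in 11 of 29 (up to 0.0218).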

How the results depend on the processing

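For the 10 members in 7 comparisons (70 results), 2000 alternative values were computed, of which 1907 kept direction and side of the threshold, 26 kept direction and lost the call, 3 gained it and 64 changed sign. For the 14 results named among other pathway genes, all called, 95 of 343 alternative values lost the call and none changed sign. Eif4ebp1 on HFD was called in every alternative. The Sesn2 depot difference was called in DESeq2 (adjusted p = 0.00159) and lost with no filter (0.0115), without mitochondrially encoded genes (0.0102) and in 1 fit of 6 groups (0.0416), so members called there were 0 in those 3 settings and at 0.001, and 0 to 1 with a mouse left out. It was lost without BAT KI mouse 2, 4 or 5, BAT WT mouse 1, 3, 4, 5 or 6, HFD inguinal KI mouse 1, 3 or 8, or HFD inguinal WT mouse 1, 4 or 5. Sesn2 between depots in WT mice was lost in 1 fit of 6 groups (-0.49, adjusted p = 0.0214). At 0.001 the WT depot comparison called 4 members. Members called on chow were 2 and in BAT 1 with DESeq2 or a threshold of 0.05, and 1 in the diet difference at 0.05.

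Other pathway genes called on HFD were 5 in 1 fit of 6 groups, 20 at 0.05, 2 at 0.001 and 7 to 16 with a mouse left out (7 without KI mouse 6). On chow they were 6 with DESeq2, 6 in 1 fit, 7 at 0.05, 0 at 0.001 and 0 to 4 with a mouse left out. In BAT they were 4 with DESeq2, 2 in 1 fit (without Rragd), 4 at 0.05, 0 at 0.001 and 0 to 1 with a mouse left out. The cause was not tested.

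Changes of sign were all in values that were not called: Rptor on HFD with no filter (0.0039), and Tsc1 in the diet difference at 10 counts in every mouse (-0.0127), without mitochondrially encoded genes (-6.8e-05) and in 1 fit (-0.0091). With a mouse left out, Rptor ran from -0.027 to 0.0198 on HFD and from -0.0795 to 0.0117 on chow, Tsc2 from -0.0129 to 0.0753 and from -0.011 to 0.0865, and Sesn2 on chow from -0.25 to 0.0146. In the diet difference Sesn2 ran from -0.22 to 0.0673, Tsc1 from -0.044 to 0.084 and Tsc2 from -0.0595 to 0.0437, and in the depot difference Ddit4 from -0.16 to 0.22, Tsc1 from -0.0971 to 0.0122 and Rps6kb1 from -0.0809 to 0.0211. Between diets in WT mice Ddit4 ran from -0.34 to 0.0857 and Deptor from -0.12 to 0.0674.

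With the replicate number as a block, 1, 0 and 0 members were called on HFD, on chow and in BAT (Eif4ebp1 0.69, adjusted p = 0.000146), and 5, 0 and 2 other pathway genes. Castor2 (adjusted p = 0.0162), Prr5l (0.0108) and Eef2k (0.0148) on HFD and Flcn (0.0387), Atg101 (0.0550) and Fnip1 (0.0556) on chow lost their calls under the block. Same-numbered mice correlated at -0.247 to 0.713 on HFD, -0.289 to 0.185 on chow and -0.076 to 0.441 in BAT. The correlation was over 0.1 in 2 of 8, 2 of 6 and 3 of 6 pairs, and 1, 0 and 3 KI mice correlated best with their own number. In no table did every pair exceed 0.1, and the samples were taken to share only a number. That rule does not settle whether same-numbered BAT mice were paired. In BAT the median correlation was 0.105, and the block raised the genes called from 243 to 363.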
